A study of Mus musculus with 4 samples.

Results

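Class 3 is one of the 14 groups of nuclei that the authors deposited for a single-nucleus ATAC-seq study of the mouse mammary gland. It held 597 of 7846 listed nuclei, chosen here by their deposited class number alone. Of these, 246 came from adult replicate 1, 343 from adult replicate 2, and 3 and 5 from the fetal replicates 1 and 2. Its working name is adult luminal progenitors, promoter-poor. ATAC-seq uses the Tn5 transposase to cut and tag open chromatin, so reads pile up at active promoters and distal regulatory regions.

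The nuclei came from wild-type CD1 mice, an outbred strain. The fetal group was taken at embryonic day 18 and the adult group at 8 weeks, with 2 biological replicates each. In all groups the cells were sorted as EpCAM+ and Lin-, which selects epithelial cells, and were thawed before the nuclei were made. Tn5 barcoding took place in 32 wells of 2000 nuclei for each adult replicate, and 20 nuclei were then sorted into each of 768 wells. A barcode can hold more than 1 nucleus under such a scheme, and no doublet caller was run here. The labels do not give the number or the sex of the mice in a replicate, or say whether glands were pooled.

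The adult mammary epithelium has an outer basal layer of contractile cells and an inner luminal layer. The luminal layer holds mature, hormone-sensing cells and luminal progenitors, which carry the Kit receptor and can give rise to the milk-secreting alveolar cells. Elf5 is the ETS-family transcription factor that directs that alveolar fate, and Foxa1 is a pioneer factor of the hormone-sensing cells. ETS factors bind short motifs with a GGAA core, which can be scored over the open regions of each nucleus.

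In the adult libraries class 3 made up 9.98% of 2465 nuclei in replicate 1 (95% exact binomial interval 8.82% to 11.2%) and 12.2% of 2804 nuclei in replicate 2 (11% to 13.5%). The mean was 11.1% ± 1.59 (SD, n = 2). Such intervals cover counting error only. Its 8 fetal nuclei were too few to describe, and all values below are from the adult libraries, given for replicate 1 and then replicate 2. No barcode was listed in more than 1 library. The first barcode piece had 4 values, and class 3 held 6.03% to 11.4% of the nuclei with each value in replicate 1 and 11.7% to 13% in replicate 2. Each of these values held 212 to 957 nuclei. The other pieces split the nuclei more finely. Whether the spread over their values goes beyond counting error was not tested. The share ran from 0% to 23.6% and from 5.97% to 19% over the 48 values of the second piece, with 39 to 72 nuclei each, from 5.45% to 12.5% and from 7.96% to 15.7% over the 8 values of the third, with 110 to 455 nuclei, and from 4.08% to 17.9% and from 7.34% to 18.6% over the 32 values of the fourth, with 49 to 109 nuclei.

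Class 3 nuclei were deeper than those of class 7 and had a smaller share of their reads at promoters. Their median depth was 5253.5 and 6058 reads, against 3866 and 4897.5 in class 7, the other adult class named as luminal progenitors. Classes 10 and 11 were deeper than class 3, with 8340.5 and 10406 reads and with 5490 and 7675.5 reads. The median share of a nucleus's reads in the deposited promoter regions was 20.9% ± 0.0907 (SD over the 2 libraries) in class 3 and 27.2% ± 0.738 in class 7. The ranges of single nuclei overlapped, from 6.31% to 31.7% and 5.77% to 35.6% in class 3 and from 15.4% to 49.7% and 9.29% to 42.2% in class 7. Of the class 3 nuclei, 11 of 246 and 23 of 343 lay above the class 7 median of their library.

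Other adult classes had a promoter share as low. Class 8, adult basal nuclei by its working name, had 18.6% ± 0.878, and class 11, a mature luminal class, had 19.6% ± 2.17. The other basal and mature luminal classes, 1 and 2, had 25.4% ± 0.0465 and 24.5% ± 1.74. Reads that fell in neither promoter nor distal regions made up a median of 36.7% and 39.2% in class 3 against 28.8% and 31.4% in class 7. Classes 8 and 11 were like class 3 in this, with 37% and 42.5% and with 35.8% and 39.9%. The distal share differed less, at 40.7% ± 1.69 in class 3 and 42.4% ± 1.29 in class 7. The share on the X chromosome was 2.33% ± 0.188 in class 3 and 1.9% ± 0.114 in class 7, and 2.59% ± 0.447 and 2.39% ± 0.19 in classes 8 and 11.

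**Figure D1:**
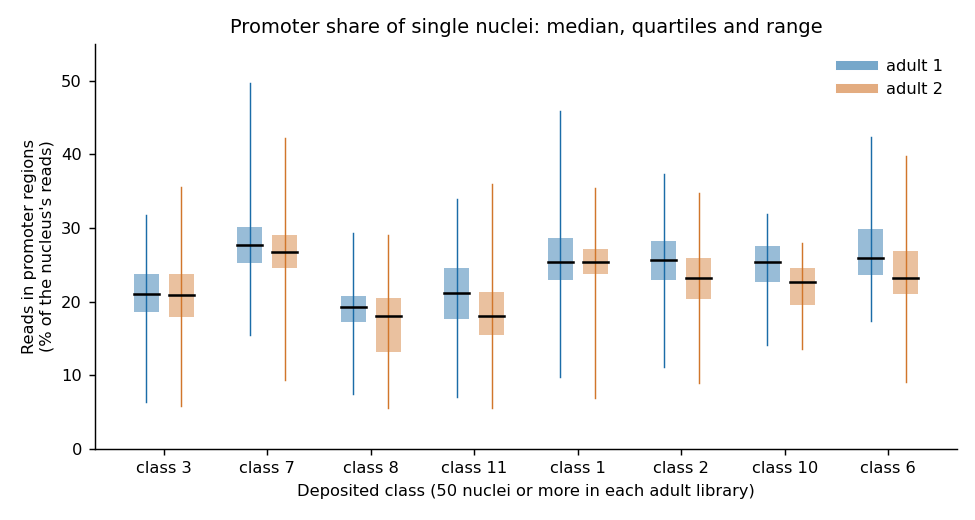
Share of each nucleus's reads in promoter regions (percent, vertical axis) for the 8 classes with at least 50 nuclei in each adult library. Black lines are medians, boxes quartiles and thin lines the full range; the class 3 medians of 21% and 20.9% lie below the class 7 medians of 27.7% and 26.7% and near those of classes 8 and 11.

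The class 3 share also moved with depth. Each library's nuclei were split by depth into 4 equal groups. From the shallowest to the deepest, the class 3 share was 5.83%, 9.9%, 8.6% and 15.6% in replicate 1. In replicate 2 it was 11.8%, 11.4%, 11.3% and 14.4%, so only the deepest group stood apart there. Class 7 went the other way, with 35.7%, 28.2%, 29.7% and 15.9% in replicate 1 and 19%, 18.7%, 18.4% and 9.84% in replicate 2. The part that depth plays in the differences between these classes was not tested, and values for deeper nuclei alone are given where they bear on a result.

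Because the authors grouped the nuclei by the same accessibility that is compared below, no difference between class 3 and other nuclei is tested. Each is described by its size in the 2 adult libraries. Reads of the class were summed within a library and given as CPM, the count scaled to a fixed total of reads of that kind. A gene span, meaning the annotated gene and 2000 bases on either side, was counted as different when log2 of (CPM + 2) moved past 1.5-fold the same way in both libraries. For regions the fold was 2. A feature was measured when its mean over both groups and libraries was at least 20 CPM. It can thus pass through the group where it is high alone. Exons, introns and UTRs were not told apart, since the annotation used gives gene spans alone.

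The 4 marker genes of luminal progenitors were higher in class 3 than in the other adult nuclei of both libraries. They were given with the class and chosen with earlier results of these data known, so this does not support its working name. Kit encodes the receptor for stem cell factor and lies at chr5:75574987-75656722 (mm10, as are all positions here). Its span had 169 and 170 CPM in class 3, against 60.8 and 46.7 CPM in all other adult nuclei, a 2.72-fold and 3.53-fold difference. Rspo1, a secreted amplifier of Wnt signals at chr4:124986401-125009102, had 108 and 60.8 CPM against 28.2 and 23.1 CPM. Its replicates lay apart, but both class 3 values were above both values of the other nuclei.

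The span of Elf5, at chr2:103412098-103450989, had 92.7 and 92.8 CPM in class 3 against 40.3 and 38.1 CPM in the other nuclei, 2.24-fold and 2.37-fold higher. Klk14, a secreted serine protease at chr7:43680880-43695536, had 52.2 and 32 CPM against 20.4 and 13.5 CPM. The Elf5 span reaches into that of Cat and the Klk14 span into that of Ctu1, so some of these reads may belong to the neighbour. For each marker, classes 3 and 7 were the top 2 adult classes in each library. Class 7 had 182 and 200 CPM at Kit, 53.5 and 55.8 CPM at Rspo1, 69 and 75.6 CPM at Elf5 and 46.1 and 47.5 CPM at Klk14. Only Rspo1 in replicate 1, 1.98-fold higher in class 3, passed 1.5-fold between the 2 classes.

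Class 10, a small adult class of mixed luminal nuclei by its working name, came next for all 4. It had 82.5 and 111 CPM at Kit, and 61.1 and 52.4 CPM at Elf5. The lowest Kit levels were those of the main mature luminal class 2, with 4 and 4.22 CPM. In the fetal libraries the main luminal-like class 9 had 47 and 73 CPM at Kit and 67.1 and 62.3 CPM at Elf5, and its values come from other libraries than those of class 3.

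**Figure D2:**
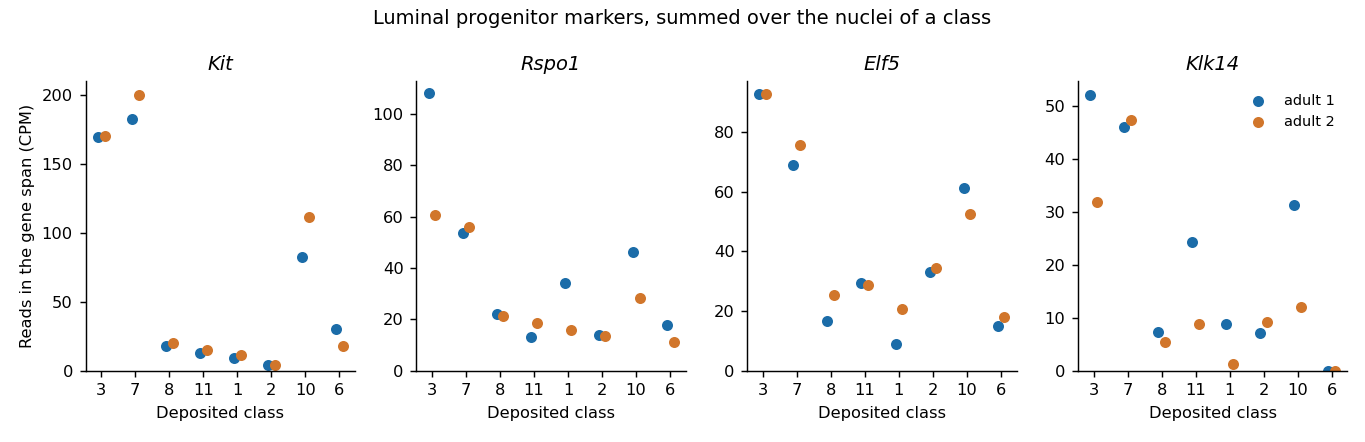
Reads in the spans of Kit, Rspo1, Elf5 and Klk14 (CPM, vertical axes) in 8 deposited classes (horizontal axes), 1 point per adult library. Classes 3 and 7 are the top 2 in every panel and library, and class 10 comes next, with 61.1 CPM at Elf5 in replicate 1 beside 69 CPM in class 7.

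The promoters of 4 genes named here are shown because the Elf5, Elf3, Ehf and Elf1 motifs, of the ETS family, led the motif scores of class 3 and because these genes were high in class 3 or, for Lcn2, lower than in class 7. They are the 250 bases before the start, 5′ to 3′ on the gene's strand, from RefSeq for GRCm38.p6, which is the build mm10. Capitals mark AGGAAG or its reverse complement CTTCCT.

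Kit: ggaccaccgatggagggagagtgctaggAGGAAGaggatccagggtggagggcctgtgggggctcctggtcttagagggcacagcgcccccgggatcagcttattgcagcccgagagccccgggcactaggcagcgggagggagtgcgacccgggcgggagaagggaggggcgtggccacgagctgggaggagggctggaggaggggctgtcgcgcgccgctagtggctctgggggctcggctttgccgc
Elf5: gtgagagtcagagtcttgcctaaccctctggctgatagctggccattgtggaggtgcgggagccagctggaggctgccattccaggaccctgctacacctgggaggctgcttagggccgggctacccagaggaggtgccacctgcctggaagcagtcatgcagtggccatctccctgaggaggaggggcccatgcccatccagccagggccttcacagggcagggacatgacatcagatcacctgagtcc
Wfdc18: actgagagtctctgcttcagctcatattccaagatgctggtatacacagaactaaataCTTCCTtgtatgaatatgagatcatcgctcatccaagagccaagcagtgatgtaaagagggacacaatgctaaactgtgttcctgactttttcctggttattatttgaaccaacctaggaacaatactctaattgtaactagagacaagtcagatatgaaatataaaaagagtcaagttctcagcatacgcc
Lcn2: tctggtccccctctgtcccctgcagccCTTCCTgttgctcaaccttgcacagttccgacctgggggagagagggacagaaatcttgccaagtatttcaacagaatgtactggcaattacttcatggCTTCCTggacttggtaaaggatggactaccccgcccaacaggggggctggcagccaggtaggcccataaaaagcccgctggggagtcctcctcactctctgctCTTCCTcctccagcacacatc

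The windows lie at chr5:75574737-75574986 (Kit, plus strand), chr2:103411848-103412097 (Elf5, plus strand), chr11:83708754-83709003 (Wfdc18, plus strand) and chr2:32387740-32387989 (Lcn2, minus strand). The letters AGGAAG occurred 1 time in Kit, 1 time in Wfdc18, 3 times in Lcn2 and not in Elf5. Of all 32851 promoters in the table, 29.5% hold these letters on either strand within the same 250 bases. A match describes the letters only, and shows no binding.

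The deposited promoter region at the Kit start, chr5:75574377-75575376, had 143 and 155 CPM of promoter reads in class 3. The other nuclei had 34.5 and 26.7 CPM and class 7 had 94.5 and 96.3 CPM. It was not counted as different from class 7, where promoter reads are a larger share of all reads. The region of the marker Rspo1 had 68.8 and 36.3 CPM against 20.9 and 22.2 CPM in the other nuclei and was not counted as different. That of Wfdc18 had 109 and 111 CPM against 29.9 and 23.5 CPM in the other nuclei. At Lcn2 the region at chr2:32387383-32388382 had 109 and 115 CPM in class 3, against 101 and 76.9 CPM in the other nuclei. It was 1.08-fold and 1.48-fold higher and not counted as different. Class 7 had 252 and 246 CPM there.

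Against all other adult nuclei, 384 of 13201 measured gene spans were higher in class 3 (2.91%) and 317 were lower (2.4%). With all reads of the nuclei as the scale in place of reads in gene spans, 288 were higher and 391 lower, and the median over all genes moved from -0.05 and -0.02 to -0.126 and -0.0622 on the log2 scale. More were also lower than higher in each library alone, with 1211 higher and 1330 lower in replicate 1 and 711 and 825 in replicate 2, and against classes 8 and 11, with 451 and 502. The order of the 2 counts is therefore not stable. Csn3 and Wfdc18 led the higher group. Csn3, which encodes kappa-casein (chr5:87925579-87932550), had 37.3 and 49.2 CPM against 9.08 and 12.3 CPM, 3.54-fold and 3.59-fold higher. Wfdc18, a small secreted protein of the whey acidic protein family (chr11:83709004-83711360), had 51.3 and 39.2 CPM against 13.4 and 9.94 CPM, in a span that overlaps Wfdc17. Both genes were picked for these differences, so class 3 lying above the other nuclei in both replicates follows from the choice.

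Timd2, a ferritin receptor (chr11:46668960-46707107), had 63.8 and 42.5 CPM in class 3 against 11.6 and 13.9 CPM in the other nuclei. Car2, a carbonic anhydrase (chr3:14886269-14900770), had 72.9 and 63 CPM against 25.3 and 21.1 CPM. Atp6v1b1, a subunit of the proton pump (chr6:83743017-83758855), had 54.7 and 47.5 CPM against 19 and 14.3 CPM, and its span overlaps that of Ankrd53. Of these 5 genes none passed 1.5-fold against class 7 in both libraries.

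Prmt8, an arginine methyltransferase at chr6:127689009-127769467, had 71.2 and 60.2 CPM in class 3 against 18.4 and 21.4 CPM in the other nuclei. It was also higher than in class 7, which had 19.2 and 38.3 CPM. B3galt5, a galactosyltransferase at chr16:96235801-96319859, behaved alike, with 102 and 74 CPM in class 3, 29.3 and 27.5 CPM in the other nuclei and 44.5 and 46.1 CPM in class 7. The remaining 2 genes of the top 10 were the little-studied 1700003H04Rik and Gm12880, 2.59-fold to 2.9-fold higher than the other nuclei. Of these, 1700003H04Rik was also counted as higher than in class 7, with 32.3 and 44.8 CPM against 18 and 22.8 CPM. Gm12880 was not.

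The 5 spans lowest against the other nuclei had their highest levels in the mature luminal classes. Areg encodes amphiregulin, the growth factor that hormone-sensing cells release under estrogen (chr5:91139599-91148432). It had 16.6 and 9.39 CPM in class 3 against 64.2 and 65.1 CPM in the other nuclei, and 105 and 108 CPM in class 2. Sec14l4, a lipid-binding protein gene at chr11:4031378-4048426, had 4.97 and 4.42 CPM against 45.2 and 44.2 CPM, from 6 and 8 reads in class 3. Ptpn5, a tyrosine phosphatase at chr7:47077795-47134026, had 24.8 and 21 CPM against 124 and 122 CPM.

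Cyp3a57, a cytochrome P450 gene at chr5:145345149-145390926, had 4.97 and 8.84 CPM in class 3 against 40.1 and 44.9 CPM. It belongs to a cluster of near-identical copies, so its reads may be shared with them. Abcc8, the sulfonylurea receptor of potassium channels at chr7:46104523-46180039, had 21.5 and 27.1 CPM against 96.9 and 99.2 CPM, in a span that overlaps Kcnj11. For all 5 the level in class 2 was the highest or, for Areg in replicate 2, 108 CPM beside 115 CPM in class 11. Class 7 was low at all 5 too, with at most 19.4 CPM, at Areg in replicate 2. None of the 5 reached the minimum to be measured between classes 3 and 7.

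The gene lists come next, and they hold genes already described above. Of the 12 genes of the luminal progenitor list 11 were measured, and 7 were higher than in the other nuclei and none lower. These were Kit, Rspo1, Elf5, Klk14, Csn3, Lbp and Tspan8. Kit, Rspo1, Elf5 and Klk14 are the markers given with the class, and Csn3 was named above, so only Lbp and Tspan8 add to those. The median log2 difference of the 11, markers included, was 1.17 and 1.14, against -0.05 and -0.02 over all measured genes. Of all measured genes 2.91% were higher and 2.4% lower. Lbp, which binds bacterial lipopolysaccharide, had 52.2 and 28.7 CPM against 20.3 and 14.7 CPM. Lbp, Csn3 and Klk14 reached the minimum mean of 20 CPM only through their class 3 levels. Tspan8, a tetraspanin of the cell surface, had 55.5 and 62.4 CPM against 23.6 and 25.3 CPM. Ltf, a milk iron-binding protein, was too low to be measured. Against class 7 none of the 11 genes was counted as different, with a median of 0.16 and 0.12. Deeper nuclei alone added Itga2, an integrin, to the 7 and lost none.

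Of the 10 mature luminal genes 8 were measured, and 3 were lower and none higher than in the other nuclei. Beside Areg these were Pgr, the progesterone receptor gene, with 39.7 and 70.2 CPM against 149 and 159 CPM, and Foxa1, with 82 and 88.4 CPM against 145 and 138 CPM. Esr1, the estrogen receptor gene, had 133 and 161 CPM against 201 and 238 CPM and was counted as lower only with all reads as the scale or in the deeper nuclei. Foxa1 was not counted in the deeper nuclei. Class 7 was low at these genes too, with 36.3 and 35.4 CPM at Pgr and 84.1 and 59.6 CPM at Foxa1. Of the list 7 genes were measured against class 7 and none was counted as different. Their median log2 difference was 0.12 and 0.55, so the low levels are not particular to class 3.

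Of the 12 basal genes 9 were measured and Acta2, the smooth muscle actin of basal cells, was counted as lower, with 19.9 and 25.4 CPM against 31.5 and 47.9 CPM, but not with TMM scaling or in the deeper nuclei. None was higher. The summed level of the 12 was 556 and 550 CPM in class 3, 554 and 686 CPM in the other nuclei and 398 and 375 CPM in class 7. None of the 7 measured against class 7 was counted as different. In the deeper nuclei Trp63 and Myh11 were higher than in class 7, as were 742 of 12960 measured spans. With all nuclei 14% of genes of 100000 to 300000 bases, the length of Trp63, were higher. Of those of 30000 to 100000 bases, the length of Myh11, 4.54% were. These genes are too few to be read. None of the 6 pan-epithelial genes, such as Epcam with 154 and 131 CPM against 139 and 118 CPM, was counted as different in either comparison. The Foxa1 span overlaps that of Ttc6 and the Acta2 span that of Stambpl1.

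Markers of cells outside the epithelium were also read in class 3. The 8 stromal genes summed to 165 and 178 CPM in class 3, 171 and 185 CPM in the other nuclei and 122 and 122 CPM in class 7. The 7 endothelial and pericyte genes summed to 265 and 287 CPM, against 234 and 242 CPM in the other nuclei and 206 and 221 CPM in class 7. The 8 immune genes summed to 115 and 106 CPM, against 98.5 and 106 CPM and 90.6 and 105 CPM.

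Of these stromal, endothelial and immune genes 4, 4 and 1 were measured against the other nuclei, and none was counted as different there. Against class 7, where 2, 3 and 1 were measured, Tek, an endothelial receptor whose span overlaps Eqtn, was the only one counted as higher, with 32.3 and 43.7 CPM against 12.6 and 26.7 CPM, and not with all reads as the scale. Of all measured genes 6.15% were higher than in class 7, and 14% of those of 100000 to 300000 bases, the class of Tek, so 1 gene is too few to be read. None of them was at 0 in class 3: Ptprc, the pan-leukocyte gene, had 14.9 and 27.6 CPM, and Col1a1, a collagen of fibroblasts, had 16.6 and 24.9 CPM. The part of such cells in the class was not tested.

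**Figure D3:**
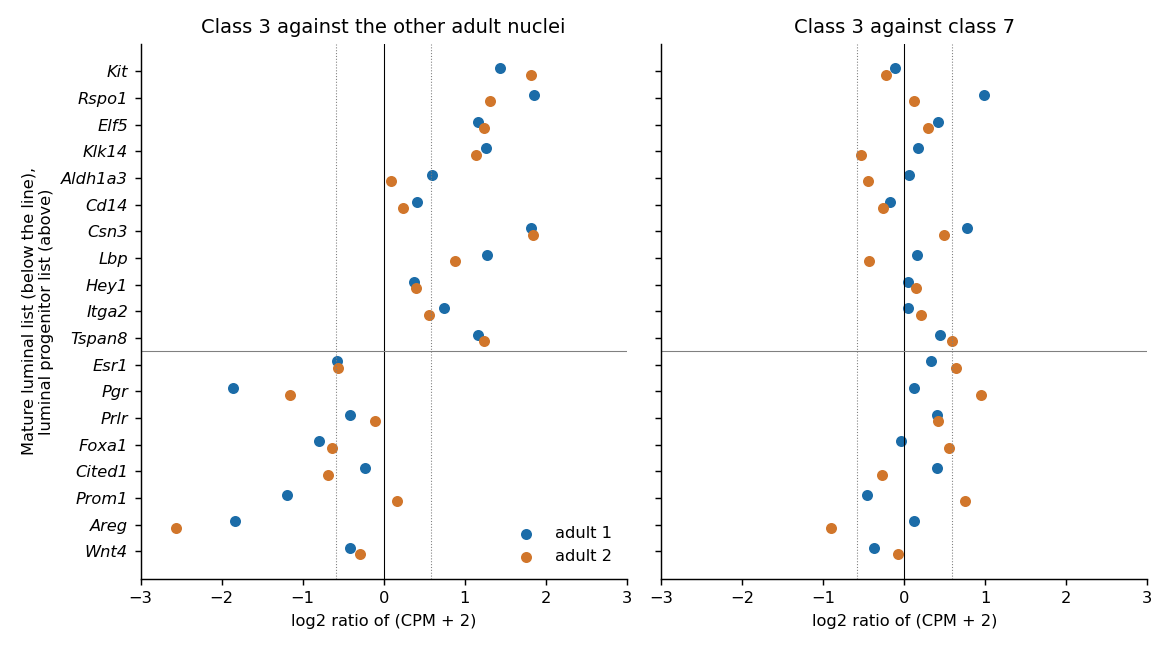
Difference of class 3 from the other adult nuclei (left) and from class 7 (right) for the measured genes of the luminal progenitor list (upper 11 rows) and the mature luminal list (lower 8 rows). The horizontal axes are log2 ratios of (CPM + 2), points are the 2 adult libraries and dotted lines mark 1.5-fold; the upper rows sit right of 0 on the left and spread around 0 on the right.

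The next lists are read against the same 2.91% higher and 2.4% lower among all measured genes. Genes described above, such as Csn3, Klk14, Elf5 and Kit, are counted again in them. Among milk protein genes, 5 of 12 were measured and 3 were higher than in the other nuclei. Beside Csn3 these were Btn1a1, which encodes the butyrophilin of the milk fat globule, with 60.5 and 56.9 CPM against 30.3 and 25.3 CPM, and Xdh, xanthine dehydrogenase, with 190 and 143 CPM against 100 and 81.7 CPM. Of the 11 kallikrein genes 3 were measured, and all 3 (Klk10, Klk11 and Klk14) were higher. Csn3, with 9.08 and 12.3 CPM in the other nuclei, and Klk14, with 20.4 and 13.5 CPM, reached the minimum of 20 CPM only through class 3. Their places in these counts are therefore no support. Klk10 had 81.2 and 56.4 CPM against 36 and 32.5 CPM, and Klk11 had 43.1 and 42.5 CPM against 21.4 and 22.2 CPM. The spans of Klk10, Klk11 and Klk12 overlap, so these are not independent. Of the 9 epithelial ETS genes, all measured, Elf5 and Ehf were higher and none was lower. Ehf had 253 and 220 CPM against 121 and 104 CPM, and 221 and 239 CPM in class 7.

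Of the 12 genes of Kit signalling, all measured, only Kit and Lyn, a Src-family kinase, were higher. Lyn had 194 and 144 CPM against 91.5 and 87.5 CPM. Of 8 measured Sox genes 2 were higher, namely Sox10 with 82.8 and 94.5 CPM against 44.6 and 37.8 CPM and Sox6 with 227 and 244 CPM against 128 and 156 CPM. The Sox10 span overlaps that of Polr2f. Sox10 is a factor of neural crest and of mammary stem and progenitor cells.

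Among 11 measured retinoid genes Crabp2, a retinoic acid carrier, was higher, with 37.3 and 33.2 CPM against 21.3 and 18 CPM. Crabp2 too reached the minimum mean only through its class 3 level. Of 14 prolactin and JAK-STAT genes only Elf5, which is on this list too, was higher. A single gene in lists of 11 and 14 is too few to be read against the 2.91% of all genes. None of 16 Notch genes was counted as different from the other nuclei. No measured gene of the milk, ETS, kallikrein, Sox, retinoid or JAK-STAT lists was counted as different from class 7, where 6.15% of all measured genes were higher and 2.39% lower.

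Sox11, a factor of developing tissues on the Sox list, was too low to be measured over its span, with 24.8 and 23.2 CPM in class 3 against 7.48 and 9.7 CPM in the other nuclei and 7.34 and 9.7 CPM in class 7. Its promoter region at chr12:27341816-27342815 was counted as higher in both comparisons, with 60.2 and 42 CPM in class 3 against 9.96 and 12.6 CPM in the other nuclei and 14.2 and 15.8 CPM in class 7. These levels rest on 21 and 22 class 3 reads, and the gene was chosen after its values were seen.

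Class 3 had high scores for the Elf5, Elf3, Ehf and Elf1 motifs and low ones for Foxa1 and Fos, each relative to the other adult nuclei. The authors' chromVAR scores give, for each nucleus, how far the accessibility of all regions with a motif deviates from what its depth and background predict. Of 427 motifs, 6 were at least 1 score unit higher in class 3 than in the other nuclei in both libraries (1.41%) and 15 were lower (3.51%). Only 388 of the 427 score columns are distinct, since some motifs have identical scores. The distinct columns numbered 6 among the higher and 14 among the lower motifs, because Foxc2 and Foxs1 share theirs. The higher group held 4 ETS motifs. The Elf5 motif averaged 1.82 and 1.47 in class 3, 0.15 and -0.29 in the other nuclei, and 1.78 and 1.69 in class 7. The SD over class 3 nuclei was 1.43 and 1.39.

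Elf3 averaged 1.7 and 1.43, Ehf 1.43 and 1.12, and Elf1 1.39 and 1.21 in class 3. These motifs share the same core, so their scores are not independent, and they do not tell which factor was bound. Not all ETS motifs were high. Of the other ETS motifs on a list of motifs chosen for this tissue, Etv6 was higher than in the other nuclei by 0.33 and 0.53 units, while the difference was -0.25 and -0.23 for Spdef and -0.29 and -0.03 for Ets1. Outside the list, and chosen after their values were seen, Elf4 was higher by 0.39 and 0.6 units. The difference was -0.05 and 0.21 for Elf2, which averaged 0.14 and 0.19 in class 3, -0.47 and -0.27 for Elk1, -0.48 and -0.3 for Etv4 and -0.44 and -0.14 for Ets2. Nfic, a nuclear factor I motif, averaged 0.6 and 0.58 against -0.62 and -0.6 in the other nuclei. Sox4 averaged 0.41 and 0.42 against -0.67 and -0.69. Classes 1 and 8, the basal classes by name, had higher Nfic scores than class 3, from 0.71 to 0.86.

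The Foxa1 motif was lowest against the other nuclei, with -1.32 and -1.35 in class 3 against 1.19 and 1.1. The mature luminal classes 2 and 11 averaged 3.7 to 4.66. The basal classes 1 and 8 scored lower than class 3 in both replicates, and class 7 averaged -0.85 and -0.98. A low Foxa1 score is thus not particular to class 3. Next came Smarcc1, Fos, Foxc1, Foxc2 and Foxa3. Fos is a subunit of AP-1, the factor of growth and stress signals. Fos averaged -0.61 and -0.97 in class 3 against 1.15 and 1.39 in the other nuclei. The Fos score was lower in class 3 than in every other adult class with at least 50 nuclei in the library. Class 7 came next, with -0.27 and -0.61. The SD over class 3 nuclei was 1.96 and 2.23. Foxc1, another forkhead motif, averaged -0.86 and -0.88 against 0.88 and 0.72. The basal classes 1 and 8 were lower than class 3 at Foxc1, Foxc2 and Foxa3 too, in both replicates. Foxa3 averaged -0.58 and -0.69 against 0.99 and 0.88, and Smarcc1, named for a subunit of a chromatin remodelling complex, -0.53 and -0.95 against 1.24 and 1.43. For Smarcc1 the classes came in the same order as for Fos in both replicates, so these scores may not be independent.

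From class 7, no motif differed by 1 unit in both libraries, with 0% higher and 0% lower. The differences ran from -0.56 to 0.54 in replicate 1 and from -0.73 to 0.3 in replicate 2, and 97.9% of the motifs were within 0.5 units in both. The motifs lowest against class 7, by the smaller of the 2 differences, were Foxc2, Foxc1, Bhlhe40 and Zfp281. Foxc2 averaged -0.86 and -0.89 in class 3 against -0.39 and -0.45 in class 7, and Foxc1 -0.86 and -0.88 against -0.41 and -0.48. Bhlhe40, a factor that binds E-boxes, averaged -0.36 and -0.32 against 0.06 and 0.08. Zfp281, a zinc finger factor, averaged -0.6 and -0.37 against -0.15 and 0.03. Among the motifs of the list, the NF-κB subunits of inflammatory signalling were lower too. Nfkb1 averaged 1.16 and 0.99 against 1.5 and 1.72, and Rela 0.87 and 0.82 against 1.26 and 1.36.

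The motifs highest against class 7 were Tead4, Irf2, Sox2 and Irf5. Tead4, a partner of the Hippo pathway's Yap1, averaged 0.64 and 0.82 against 0.19 and 0.52. Irf2, an interferon regulatory factor, averaged 0.25 and 0.19 against -0.18 and -0.1, and Irf5, another, 0.03 and 0.17 against -0.19 and -0.04. Sox2 averaged 0.34 and 0.35 against 0.05 and 0.11. Sox9, on the list too, averaged 0.29 and 0.24 against -0.13 and 0.03.

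**Figure D4:**
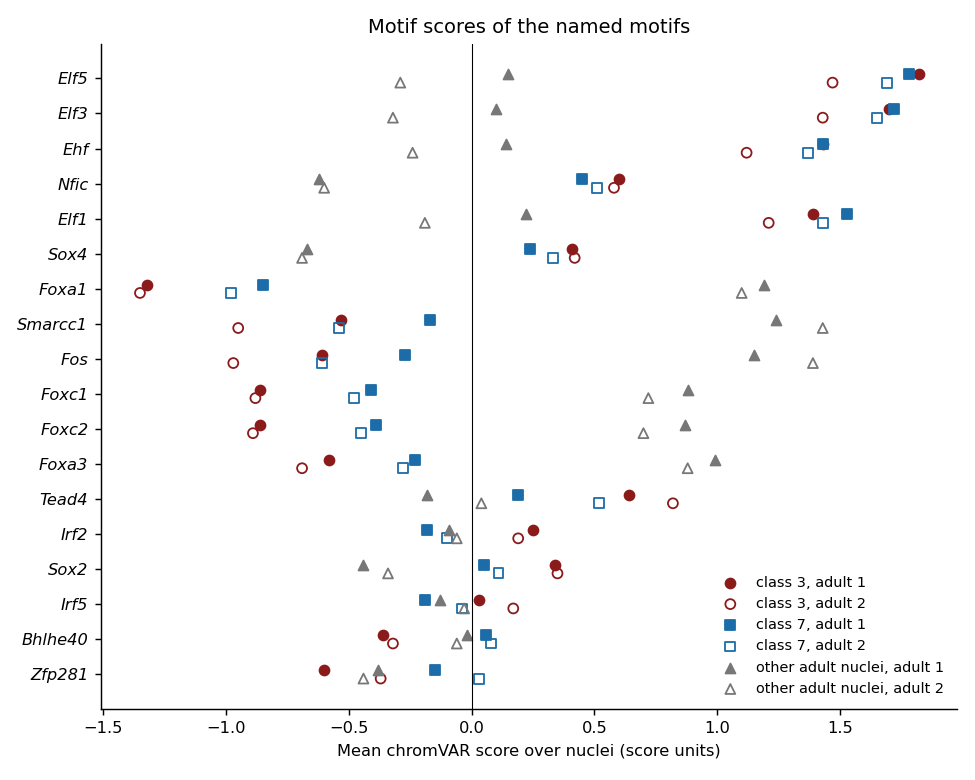
Mean chromVAR score (score units, horizontal axis) of the named motifs (rows) in class 3, class 7 and all other adult nuclei, with filled symbols for adult replicate 1 and open symbols for adult replicate 2. Class 3 and class 7 lie within 1 unit of each other in every row, while the other nuclei lie lower for Elf5, Elf3, Ehf and Elf1 and higher for Foxa1, Foxa3, Foxc1, Foxc2, Smarcc1 and Fos.

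The scores moved with depth, so they were also set side by side at like depth. Class 3 nuclei of 2000 to 4000 reads had an Elf5 motif score of 1.25 and 1.02, and those of 8000 or more had 2.41 and 1.97. In class 7 the same ranges gave 1.43 and 1.38, then 3 and 2.15, higher than class 3 in each range and replicate. In the range from 4000 to 8000 reads the Elf5 score was 1.85 and 1.35 in class 3 and 1.98 and 1.77 in class 7.

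For Nfkb1 class 3 had 0.81 and 0.89 in the lowest range and 1.22 and 1.15 in the highest, against 1.33 and 1.34, then 2.38 and 2.25, in class 7. From 4000 to 8000 reads class 3 had 1.39 and 0.92 and class 7 had 1.53 and 1.82. The Nfkb1 score was thus lower in class 3 in each depth range and replicate. Fos was also lower in class 3 in each range and replicate. The values were -0.62 and -0.81 against -0.25 and -0.67 in the lowest range, -0.72 and -1.04 against -0.43 and -0.93 in the middle one, and -0.44 and -1.04 against 0.4 and 0.23 in nuclei of 8000 or more reads.

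Class 3 nuclei were also split into 4 equal groups by promoter share. Those in the lowest group (medians 16.3% and 15.4%) had Elf5 motif scores of 1.81 and 1.32. Those in the highest group (25.3% and 25.2%) had 1.45 and 1.37. Fos went from -0.14 and -0.49 in the lowest group to -1.21 and -1.57 in the highest. Thus the Elf5 score had no common direction across promoter share in the 2 replicates, while Fos was lower in the promoter-rich group in both.

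Class 3 differed from class 7 in many gene spans despite alike markers. Of 12981 measured spans 798 were higher (6.15%) and 310 lower (2.39%). With all reads as the scale 588 were higher and 585 lower, and the median over all genes moved from -0.05 in both replicates to -0.16 and -0.161. The largest difference in the higher group was at Stac, an adaptor protein of muscle and neurons (chr9:111561437-111690588), with 29.8 and 45.9 CPM in class 3 against 6.53 and 8.73 CPM in class 7. Against all other nuclei, with 23.4 and 34.9 CPM, it was not counted as different.

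Ror2, a receptor for Wnt5a at chr13:53109317-53286124, had 59.6 and 70.2 CPM in class 3 against 15.9 and 18.9 CPM in class 7. Scn9a, a sodium channel at chr2:66480080-66635114, had 60.5 and 51.4 CPM against 12.2 and 13.6 CPM. Adamts20, a secreted protease at chr15:94268314-94432074, had 64.6 and 63.5 CPM against 17.5 and 17.5 CPM. None of these 3 genes was counted as different from the other adult nuclei. In the basal class 8 Ror2 had 239 and 177 CPM and Adamts20 had 165 and 116 CPM.

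Insm1, a zinc finger factor of endocrine cells at chr2:146221997-146225020, was the only short span of the 5, with 50.5 and 26 CPM against 12.2 and 5.82 CPM. It rested on 30 and 12 reads in class 7. Of the Wnt and R-spondin list 18 of 19 genes were measured and 4 were higher than in class 7, where 6.15% of all measured genes and 14% of those of 100000 to 300000 bases, the class of Lef1 and Lgr5, were higher. Rspo3, a relative of Rspo1, had 38.1 and 53.6 CPM against 10.2 and 17.9 CPM. Wnt5a, a ligand, had 42.2 and 46.4 CPM against 21.2 and 18.9 CPM.

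The other two of that list were Lef1, a nuclear partner of beta-catenin, with 43.9 and 57.5 CPM against 22.4 and 19.9 CPM, and Lgr5, an R-spondin receptor, with 65.4 and 86.2 CPM against 29 and 49.9 CPM in a span that overlaps A930009A15Rik. Jag2, a Notch ligand, had 43.9 and 36.5 CPM against 11.4 and 15.5 CPM and was the only 1 of 16 measured Notch genes counted, which is near the 6.15% of all genes. Of these 5 genes only Rspo3 was also counted as higher than in all other adult nuclei, which had 22 and 32 CPM, and not so in the deeper nuclei. The promoter region of Jag2 had 34.4 and 11.5 CPM in class 3 against 14.2 and 27.3 CPM in class 7. That of Lef1, with 0 and 19.1 CPM against 14.2 and 8.62 CPM, was too low to be measured. The replicates went opposite ways at both regions. The median log2 differences of the 2 lists from class 7 were 0.12 and 0.11 for Wnt and -0.08 and -0.02 for Notch, against -0.05 and -0.05 over all measured genes.

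The lower group held short spans and a defence gene. Lcn2, which encodes the iron-chelating defence protein lipocalin-2 (chr2:32384637-32387739), had 66.2 and 69.6 CPM in class 3 against 248 and 198 CPM in class 7, 3.67-fold and 2.8-fold lower. Class 10 had 150 and 76.6 CPM and the mature luminal classes 2 and 11 under 6 CPM. Its neighbour 1110008P14Rik (chr2:32379101-32381915), with 35.6 and 45.3 CPM against 120 and 103 CPM, has a span that overlaps Lcn2. Cxcl2, a neutrophil-attracting chemokine, had 38.1 and 33.7 CPM against 99.2 and 62.1 CPM.

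Lcn2 and Cxcl2 were the 2 of 10 measured innate defence genes counted as lower than in class 7, where 2.39% of all measured genes were lower, and none was higher. The median log2 difference of the 10 was -0.33 and -0.37, against -0.05 and -0.05 over all measured genes. Of the 10 genes 7, among them Lcn2 and Cxcl2, are under 10000 bases long, and over all measured genes of that length the median was -0.22 and -0.22 and 4.85% were lower. Against all other nuclei, where 2.91% of genes were higher, Lbp and Wfdc18 of this list were higher and none was lower. The remaining named genes lower than in class 7 were Smdt1, a part of the mitochondrial calcium uniporter, Tmed1, a cargo receptor of the secretory pathway, and Rpl11, a ribosomal protein. Rpl11 had 15.7 and 11.1 CPM against 36.3 and 29.6 CPM, Smdt1 14.9 and 17.1 CPM against 36.7 and 43.2 CPM, and Tmed1 24.8 and 18.2 CPM against 57.1 and 50.4 CPM. The Smdt1 span overlaps those of Pheta2 and Ndufa6, and the Tmed1 span that of Dnm2.

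Span length separated the 2 directions. The median length was 158843 bases for the 798 higher genes, 12337 bases for the 310 lower genes and 28920 bases for all measured genes. Of 555 measured genes of 300000 bases or more, 252 were higher (45.4%) and 0 lower. Of 2682 genes under 10000 bases, 42 were higher (1.57%) and 130 lower (4.85%). The median log2 difference was higher in each longer class, from -0.22 and -0.22 in the shortest to 0.66 and 0.65 in the longest.

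Long and short genes also lay apart when only 1000 bases on either side of the gene start were counted. There 128 of 423 long genes were higher (30.3%) and 7 lower, against 92 of 2164 short ones higher (4.25%) and 73 lower. With all reads as the scale 206 of the 555 long genes were higher (37.1%), and in the deeper nuclei alone 213 (38.4%). The share of reads outside promoter and distal regions moves with this result, as given above, and its part was not tested.

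The comparison was repeated in other nuclei of the same libraries, a choice made after the class 3 result was seen. Class 8 was set against class 1 (the basal pair, by working names) and class 11 against class 2 (the mature luminal pair). In the basal pair 5.52% of 12744 spans were higher and 4.4% lower, and in the mature luminal pair 4.3% of 13011 were higher and 1.77% lower. Of genes of 300000 bases or more, 43.2% and 34.7% were higher in the promoter-poor class of these pairs. In all 3 pairs the median log2 difference was higher in each longer class. The promoter-poor class was also the deeper one in each pair, with medians of 4389 and 5214 reads against 3731 and 4222 in the basal pair and 5490 and 7675.5 against 4423 and 5666.5 in the mature luminal pair.

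Genes higher in class 3 than in class 7 were often higher in the other pairs too. Of 743 such genes measured in the basal pair, 301 were higher there (40.5%), where 5.06% of all genes measured in both were higher. They made up 49.2% of the 612 higher genes of that pair that were also measured between classes 3 and 7. In the mature luminal pair 272 of 719 were higher (37.8%), where the background was 4.06%. They made up 54.4% of the 500 higher genes of that pair so measured. Of 694 genes measured in all 3 pairs, 155 were higher in all 3 (22.3%, background 1.84%), and 291 (41.9%) were higher in neither of the other pairs. Of the genes lower than in class 7, 35 of 288 were lower in the basal pair (12.2%, background 4.47%, 6.47% of that pair's 541). In the mature luminal pair 30 of 296 were lower (10.1%, background 1.76%, 13.8% of that pair's 217). All these backgrounds take genes of every length. Of genes of 300000 bases or more 43.2% and 34.7% were higher in the basal and mature luminal pairs. Of those of 100000 to 300000 bases 13.6% and 10.5% were. The overlap at like length was not computed, so the part of length in it was not tested.

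For the named genes, Scn9a and Ror2 were also counted as higher in the basal pair and Stac in the mature luminal pair. Rpl11 was also counted as lower in the basal pair, with log2 differences of -1.28 and -0.63. Lcn2 was counted in neither, with log2 differences of -0.41 and -0.74 in the basal pair and -0.35 and 1.24 in the mature luminal pair. In the latter its levels were under 6 CPM in each class and replicate.

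**Figure D5:**
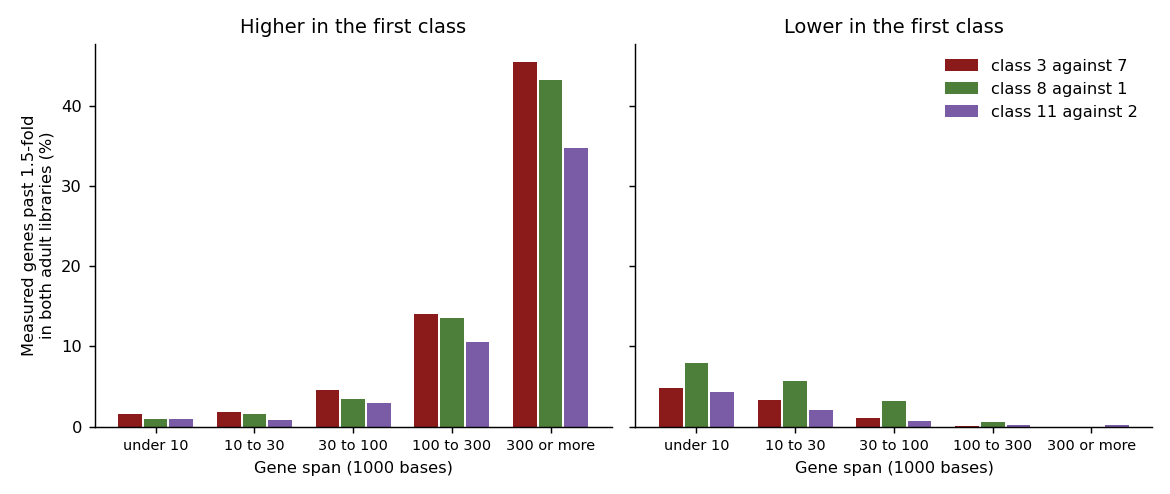
Percent of measured genes past 1.5-fold in both adult libraries (vertical axes), higher (left) or lower (right) in the first class of each pair, by length of the gene span (horizontal axes). The share of higher genes is 1.57% in the shortest and 45.4% in the longest class for class 3 against class 7, and 43.2% and 34.7% in the longest class for the other pairs.

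Distal regions, 1000 bases each, were compared in the same way. Against all other adult nuclei 701 of 10418 measured regions were higher (6.73%) and 318 lower (3.05%). With TMM scaling over the measured regions these numbers were 466 and 430, and with all reads as the scale 439 and 293. Of the higher regions 49.1% lay within a gene span and of all measured ones 53.3%. Their median distance to the nearest gene start was 25770 bases, against 17685 bases for all measured ones. Levels at a single region rest on few reads.

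The region at chr8:35830341-35831340, between genes and 52117 bases from the start of 5430403N17Rik, had 42.7 and 42.7 CPM in class 3 (29 and 41 reads) against 5.5 and 3.67 CPM in the other nuclei. Class 7 came next in both replicates, with 16.7 and 15.6 CPM. The region at chr11:34738513-34739512 in the span of Dock2, a gene of leukocyte migration, had 42.7 and 50 CPM against 4.72 and 7.33 CPM. That at chr16:9221741-9222740, between genes, had 66.3 and 50 CPM against 10.6 and 6.45 CPM.

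Near Pdzrn3, which encodes a ubiquitin ligase, the region at chr6:101385050-101386049 had 61.9 and 56.2 CPM against 9.23 and 8.8 CPM. It lies 7652 bases from the gene's start, and the authors' deposited table of co-accessibility joins it to the promoter region of Pdzrn3 with a score of 0.288. That table was made over nuclei of all classes. The region at chr1:172711689-172712688, 14132 bases from the start of Crp, the C-reactive protein gene, had 51.6 and 50 CPM against 8.06 and 5.87 CPM. All 5 of these regions had their highest level among the adult classes in class 3, in both replicates. They were picked for their difference from the other nuclei, so this follows largely from the choice.

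The 3 distal regions lowest against the other nuclei had no class 3 read in either replicate. The region at chr2:132989459-132990458 had 52.1 and 48.6 CPM in the other nuclei. Taking 3 reads per library as the floor, this is at least 11.8-fold and 15.6-fold higher than in class 3. The region at chr3:83059025-83060024 in the span of Plrg1 had 46.6 and 46.1 CPM, at least 10.5-fold and 14.8-fold higher. That at chr4:56418946-56419945, between genes, had 48.7 and 45.8 CPM, at least 11-fold and 14.7-fold higher. All 3 were highest in class 2 or 11, the mature luminal classes, in each replicate, and class 7 had at most 3 reads at each.

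Against class 7, 66 of 11809 distal regions were higher (0.559%) and 180 lower (1.52%). With TMM scaling this split turned around, to 114 higher and 70 lower, as it did with a minimum of 10 CPM, to 523 and 415. With all reads as the scale it was 30 and 173. The difference depended on how open a region was. At 20 to 30 CPM the median log2 difference was -0.04 and -0.11, and at 100 CPM or more it was -0.52 and -0.51, with 12 of 263 regions lower and 0 higher. The larger share of class 3 reads outside all regions, given above, moves with this, and its part was not tested.

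The region with the largest gain over class 7 lay in the span of Arhgef4, which encodes a guanine exchange factor (chr1:34721841-34722840), with 38.3 and 32.3 CPM in class 3 against 7.59 and 7.34 CPM. It was the highest of the adult classes there. The region 395 bases from the start of Zfp804b, at chr5:7344274-7345273, had 59 and 66.6 CPM against 16.7 and 16.5 CPM, but the basal classes had more, with 104 CPM in class 1 in replicate 1 and 100 CPM in class 8 in replicate 2. A region between genes at chr2:139792294-139793293 had 20.6 and 48.9 CPM against 4.56 and 13.8 CPM, and was highest in the basal classes.

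On the lower side, the region at chr6:86148682-86149681, 46041 bases from the start of Tgfa, a ligand of the EGF receptor, had 5.9 and 5.2 CPM against 28.1 and 51.4 CPM in class 7. The region at chr4:150858843-150859842 in the span of Errfi1, a feedback inhibitor of that receptor, had 8.84 and 8.33 CPM against 38.7 and 54.1 CPM. Class 3 counts at both were 4 to 8 reads.

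Among 11835 measured promoter regions, 210 were higher than in the other nuclei (1.77%) and 71 lower (0.6%). With all reads as the scale the numbers were 62 and 60, and the median moved to -0.217 and -0.0874. The highest were the region at chr16:45651641-45652640 in the span of BC016579, with 63.1 and 36.3 CPM against 8.63 and 3.74 CPM, and that at chr2:24214598-24215597 in the span of Il1f6, an interleukin-36 gene, with 51.6 and 34.4 CPM against 3.65 and 4.01 CPM. Next was the region 266 bases from the start of Dpp6, a potassium channel partner (chr5:26817124-26818123), with 48.7 and 59.2 CPM against 7.64 and 5.34 CPM. These 3 rest on 17 to 31 class 3 reads.

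The lowest were at chr9:96893273-96894272, with no class 3 read against 53.1 and 60.1 CPM in the other nuclei, which is at least 6.18-fold and 10.5-fold higher, and at chr10:60832491-60833490, 1409 bases from the start of Unc5b, with 1 and 0 reads against 63.8 and 60.1 CPM. The third, at chr9:8972346-8973345, 73012 bases from the start of Pgr, had 0 and 1 reads against 47.2 and 36.3 CPM. All 3 were highest in a mature luminal or mixed luminal class (2, 10 or 11).

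Against class 7, 242 of 11524 promoter regions were higher (2.1%) and 42 lower (0.364%), as a share of promoter reads. As a share of all reads, 46 were higher and 150 lower, and the median over all promoter regions moved from close to 0 to -0.335 and -0.298 on the log2 scale. As a share of promoter reads the median was 0.43 and 0.38 for promoters at 20 to 30 CPM, and -0.15 and -0.13 at 100 CPM or more. As a share of all reads the medians of the same promoters were 0.07 and 0.05, and -0.5 and -0.44. The median was thus higher for the weakly open promoters on both scales, while the scale set which of these groups lay farther from 0. Compared with classes 8 and 11, which have a promoter share like that of class 3, 189 promoter regions were higher and 217 lower. Against the same classes 7 motifs were at least 1 unit higher in both libraries and 19 lower, where 6 and 15 were counted against all other nuclei. This reference was chosen after the promoter shares were seen.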

How the data were processed

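Single-nucleus ATAC-seq reads of 4 libraries (2 fetal, 2 adult) were used as deposited. Per the submitters' processing notes, Bowtie2, MACS2 and bedtools were used with the build mm10; their roles and settings are not given in the sources used here. The authors deposited the reads with their barcodes, 145453 distal and 19204 distinct promoter regions, and, for each of 7846 nuclei, a class, the count of its reads and a chromVAR deviation score for 427 motifs. The authors' deposited Cicero co-accessibility score was used to name the promoter joined to a region. The Cicero gene score was not used.

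Reads overlapping a region or a gene span by at least 1 base were counted here, summed per class and library, and given as CPM of the reads of that kind. Spans of 21887 protein-coding genes came from RefSeq for GRCm38.p6. Differences are log2 ratios after adding 2 CPM. No test was run, since the classes were made from the same nuclei, so no p-value is given, and 2 libraries per group limit the precision. The adult libraries held 13588107 and 19304830 reads of listed nuclei. The counting of differences was tested on simulated data. Alternatives were TMM scaling (edgeR 4.0.16 in R 4.3.3), all reads as the scale, minima of 10 and 50 CPM, 0.5 CPM added, each replicate left out, deeper nuclei, read midpoints or start windows, and equal weights for classes.

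The named features beyond the markers are those with the largest smaller change of the 2 libraries. Against the other adult nuclei these are 10 genes higher and 5 lower, 5 distal regions higher and 3 lower, and 3 promoter regions and 6 motifs each way. Against class 7 they are 5 genes, 3 distal regions and 4 motifs each way. One of these regions is not reported here. The class, the markers and the lists were chosen with earlier results of these data known. Scripts ran in Python 3.11.15 with pandas 2.3.3, numpy 2.4.6 and scipy 1.17.1.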

Additional observations from a re-analysis of the deposited data

How the results depend on the processing

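No paired analysis was possible because the results come from no test, and a replicate block is a term of a test. The description is itself paired by library, since both groups of nuclei come from the same library. Of 160 values under other settings, 70 moved by over 1.5 times or past the spread of the replicates; the cause was not tested. The split of distal regions against class 7 turned from mostly lower to mostly higher with TMM scaling and with a minimum of 10 CPM, and that of promoter regions from mostly higher to mostly lower with all reads as the scale. Against the other nuclei, gene spans turned from mostly higher to mostly lower with all reads as the scale, in each library alone and against classes 8 and 11, and promoter regions against classes 8 and 11. With all reads as the scale, distal regions higher than the other nuclei numbered 439 and higher than class 7 30, promoter regions higher 62 and 46 with 150 lower than class 7, and gene spans lower than class 7 585. TMM scaling gave 466 distal regions higher than the other nuclei, and 114 higher and 70 lower than class 7. A minimum of 10 CPM gave 2114 higher and 1613 lower distal regions against the other nuclei, 523 and 415 against class 7, 426 and 184 promoter regions, and 590 and 70 against class 7. A minimum of 50 CPM gave 42 and 9, 0 and 40, 46 and 9, and 32 and 16 in that order, and for gene spans 175 and 135, then 322 and 179. Without either replicate, that is in 1 library alone, more passed: distal regions 1440 to 1643 higher and 552 to 831 lower, against class 7 376 to 643 and 900 to 1148; promoter regions 490 to 906 and 351 to 507, against class 7 751 to 1005 and 387 to 542; gene spans 711 to 1211 and 825 to 1330, against class 7 1429 to 1635 and 1106 to 1392. Classes 8 and 11 as the reference gave 1150 distal regions higher, 217 promoter regions lower and 502 gene spans lower, and equal weights 163 distal regions lower. Deeper nuclei gave 65 promoter regions lower than class 7 and a promoter share of 21.6%. That share was 19.4% by read midpoints and 21.1% of the summed reads, and 20.9% to 21% with a replicate left out; the class share was then 9.98% to 12.2%. Motif counts against the other nuclei stayed at 6 to 9 higher and 14 to 20 lower, and at 0 against class 7, in every setting run.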
